A study of Mus musculus with 62 samples.

Results

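The genes that encode the PPAR and RXR nuclear receptors, with the genes of a pair of their corepressors, were followed through maps of active chromatin in mouse skeletal muscle. A region belonged to them when the deposited annotation named Ppara, Ppard, Pparg, Rxra, Rxrb, Rxrg, Ncor1 or Nrip1 as its gene. This gave 709 of 601616 regions over 20 lists, of which 695 of 596282 were peaks in the 16 lists of single groups and 14 of 5334 were regions in the 4 lists of differential acetylation. The 16 lists held 372 member peaks of 297760 for H3K27ac, acetylation of histone H3 at lysine 27 that marks active enhancers and promoters, and 323 of 298522 for H3K4me2, dimethylation at lysine 4 that marks enhancers and promoters more widely. A region was assigned by gene name and not by its level, although the 8 genes were chosen with earlier results of these data known.

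PPARs (PPARα, PPARδ and PPARγ, from Ppara, Ppard and Pparg) are nuclear receptors that bind fatty acids and their derivatives. They act as heterodimers with an RXR (RXRα, RXRβ and RXRγ, from Rxra, Rxrb and Rxrg), a partner that also pairs with the thyroid hormone, retinoic acid, vitamin D and oxysterol receptors. The heterodimer binds a direct repeat of the half-site AGGTCA with 1 base between its copies (DR1), and in muscle PPARδ and PPARα drive genes of fatty acid uptake and oxidation. NCoR1 (Ncor1) is a corepressor that brings histone deacetylase 3 to nuclear receptors, and RIP140 (Nrip1) is a corepressor of nuclear receptors that restrains oxidative genes in muscle. PGC1α, from Ppargc1a, is a coactivator of PPARs and of other nuclear receptors.

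The 8 groups were male mice labelled C57BL/6, with 2 libraries per mark. All but mTg and its littermates were bought as C57BL/6J mice at 7 to 8 weeks of age; ages of the transgenic line are not given in the sources used here. Untreated wild-type mice gave extensor digitorum longus (EDL) and quadriceps (Quad), which are mostly glycolytic, and soleus (Sol) and diaphragm (Dia), which are more oxidative. Quad came further from wild-type mice caged with a running wheel for 4 weeks (Ex), from their caged controls without one (Sed), from sedentary mice that carry a skeletal muscle-specific Pgc1a transgene (mTg) and from their wild-type littermates (Wt). Each Quad sample was 1 muscle of 1 animal, and each EDL, Sol or Dia sample was a pool of 3 animals, so a pooled replicate averages over animals. Ex muscle was taken 4 to 6 hours after the last run.

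Depth was 6405517 to 24195147 tags over the 32 histone libraries and 7721156 to 22883142 tags over the 11 inputs, and the lowest was a library labelled mTg H3K4me2. Muscle fiber markers had H3K27ac peaks in every group, at 6 to 9 of 9 genes, and Myh7, the slow myosin heavy chain, had H3K27ac peaks only in Sol and Dia, with 3 each. Markers of other cells were also marked in every group: 5 of 5 endothelial genes, 3 to 5 of 5 macrophage genes, 4 of 4 fibroblast genes and 2 to 4 of 6 adipocyte genes, while Cidec of the adipocyte list had no peak in any list. In whole muscle, fewer nuclei of a type and a weaker mark per nucleus cannot be told apart.

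In the accessible elements of these loci, DR1 words with up to 2 mismatches were about as frequent as elsewhere, and no closer match was found. Exact half-sites were in a larger share of them, a difference that was not tested. Of the 51 ATAC-seq peaks of control Quad that lay in member regions, 195 bases long each, 13 held an exact AGGTCA half-site on either strand (25.5%, against 15.97% of all 44911 ATAC peaks). A DR1 with at most 2 mismatches in its 12 letters (AGGTCANAGGTCA) was found in 2 of the 51 (3.92%, against 3.16% of all), and none had at most 1 mismatch (0.347% of all). Both DR1 matches contain an exact half-site. The related estrogen-related receptor word was found in 0 of 51, against 0.298% of all ATAC peaks. A match of letters is a description and shows no binding.

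The sequences below are the elements that the results return to. They are shown on the + strand of GRCm38 (mm10) as the reference gives them, with capitals for an AGGTCA half-site or a DR1 match on either strand. The Ppard intron element at chr17:28240909-28241103 lies in a region with less H3K27ac in Ex than in Sed and holds one of the DR1 matches, ACCTCAAAGGTCA on the - strand. The Nrip1 intron element at chr16:76301083-76301277 holds the other, AGGTCAGAGGAAA on the - strand. The pair at chr16:76432489-76432683 and chr16:76433275-76433469 lies at -58759 and -59545 bases from the nearest Nrip1 start, in another region with less H3K27ac in Ex, and each holds 1 half-site. The Rxrg element at chr1:167588903-167589097 lies at -9362 bases from the first start, in a region with less H3K27ac in mTg than in Wt, and holds neither word. The last pair is the 250 bases upstream of the first and second transcription starts of Rxrg, chr1:167598112-167598361 and chr1:167618015-167618264, shown because H3K27ac at these starts differed between groups.
Ppard intron: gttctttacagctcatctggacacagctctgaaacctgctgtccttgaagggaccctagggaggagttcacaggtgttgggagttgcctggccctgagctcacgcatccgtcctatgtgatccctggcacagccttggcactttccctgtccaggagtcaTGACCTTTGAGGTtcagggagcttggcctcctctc
Nrip1 intron: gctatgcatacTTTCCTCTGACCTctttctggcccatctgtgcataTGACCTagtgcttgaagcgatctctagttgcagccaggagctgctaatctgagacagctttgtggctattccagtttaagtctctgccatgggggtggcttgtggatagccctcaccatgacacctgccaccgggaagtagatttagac
Nrip1 upstream, nearer: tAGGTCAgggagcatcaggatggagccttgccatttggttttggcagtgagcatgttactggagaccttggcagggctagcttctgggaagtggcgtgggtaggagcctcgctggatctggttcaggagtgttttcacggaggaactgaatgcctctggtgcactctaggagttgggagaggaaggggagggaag
Nrip1 upstream, farther: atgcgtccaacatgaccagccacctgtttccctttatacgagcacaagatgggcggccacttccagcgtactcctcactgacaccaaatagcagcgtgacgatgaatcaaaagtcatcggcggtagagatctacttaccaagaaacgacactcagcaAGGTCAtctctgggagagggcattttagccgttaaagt
Rxrg upstream: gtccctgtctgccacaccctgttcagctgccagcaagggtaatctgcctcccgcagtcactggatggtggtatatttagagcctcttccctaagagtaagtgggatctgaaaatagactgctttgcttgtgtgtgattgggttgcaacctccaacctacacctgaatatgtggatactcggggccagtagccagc
Rxrg first start, upstream bases: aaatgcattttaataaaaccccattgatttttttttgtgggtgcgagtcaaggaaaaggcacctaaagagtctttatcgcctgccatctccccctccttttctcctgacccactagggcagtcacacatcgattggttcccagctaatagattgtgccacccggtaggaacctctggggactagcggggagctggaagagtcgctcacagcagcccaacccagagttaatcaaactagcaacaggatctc
Rxrg second start, upstream bases: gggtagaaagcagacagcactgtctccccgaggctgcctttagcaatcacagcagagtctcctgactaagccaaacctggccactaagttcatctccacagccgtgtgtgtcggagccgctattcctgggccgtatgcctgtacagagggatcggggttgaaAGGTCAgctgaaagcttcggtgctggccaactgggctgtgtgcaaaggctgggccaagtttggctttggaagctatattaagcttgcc

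Members carried H3K27ac and H3K4me2 in every group, with very unequal numbers of peaks. Rxra had the most H3K27ac peaks, 129 over the 8 lists (14 to 19 per list), and Nrip1 followed with 92 (6 to 22 per list). Pparg had 43 (3 to 7 per list), Ppard 32 (3 to 5), Ppara 27 (2 to 5), Rxrg 25 (1 to 6), Ncor1 16 and Rxrb 8, which was its single promoter peak in each list. Ncor1 had 0 H3K27ac peaks under its own name in Sed, where the peak over its promoter carried another gene's name. For H3K4me2 the order was Nrip1 with 99 peaks, Rxra 94, Pparg 44, Ppard 29, Rxrg 24, Ppara 16, Ncor1 15 and Rxrb 2, the Rxrb promoter peak being named for a neighbouring gene in the other lists. The median enrichment over input was 4.73-fold for member H3K27ac peaks, against 4.63-fold for all, and 4.65-fold against 5.004-fold for H3K4me2.

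Most member peaks lay away from promoters. The promoter class, from 1000 bases upstream to 100 bases downstream of a start, took 9.14% of member H3K27ac peaks against 12.5% of all, and 6.81% against 11.2% for H3K4me2. Merged over the groups, the H3K27ac peaks formed 83 regions. Of these 18 were marked in all 8 groups (21.7%, against 21.8% of the 63441 regions merged from all peaks) and 32 in 1 group only (38.6% against 29.4%). An H3K4me2 peak overlapped 55 of them (66.3% against 68.0%), and 38 held an ATAC peak (45.8% against 47.9%). The farthest peaks belonged to Nrip1, which had H3K27ac from -315005 to 73284 bases around its start. Of the 46 member H3K27ac peaks in Quad, 32 held an ATAC peak (69.6%, against 57.2% of all Quad H3K27ac peaks).

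The corepressor and most RXR promoters were among the most acetylated regions of every muscle. Levels are given as the deposited log2 value per kb of peak, which shares no scale between lists, and as a percentile within the list of that group. The percentile is over all peaks, promoters or not. It does not set these promoters apart from other promoters. The Ncor1 promoter ranked from percentile 97.7 to 99.7 over the 8 groups, the Nrip1 promoter from 94.9 to 99.7, the main Rxra promoter from 92.8 to 98.6 and the Rxrb promoter from 91.3 to 99.3. For Ncor1, both ends of the range, in Sed and Wt, were peaks over its promoter that are named for another gene, Pigl. Their highest levels per kb were all above 8 on the log2 scale. In Dia, Ncor1 (chr11:62456427-62459144) had 8.59 and 8.67, Nrip1 (chr16:76371888-76374203) 8.63 and 8.73 and Rxrb (chr17:34030637-34033053) 8.36 and 8.49, while Rxra in EDL (chr2:27675205-27682127) had 8.26 and 8.30. The other annotated starts of Rxra had 0 H3K27ac peaks in any group, as did the second start of Ncor1.

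The PPAR promoters ranked lower and over wider ranges, but a rank per kb also moves with the called width. The highest Ppard rank was a peak of 1168 bases in Ex, and the lowest 1 of 10504 bases in mTg. The highest Ppara rank was a peak of 3301 bases in mTg. Ppara ranged from percentile 61.5 to 99.6, Ppard from 72.6 to 95.02 and Pparg from 60.8 to 82.9. The downstream start of Pparg had an H3K27ac peak in 2 groups only, at percentiles 4.801 and 10.7. Ppard, the PPAR that predominates in muscle, was acetylated over its first introns as well as its start. Its highest level per kb was an intron peak in Dia, chr17:28246277-28248580, with 7.83 and 7.52.

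**Figure D1:**
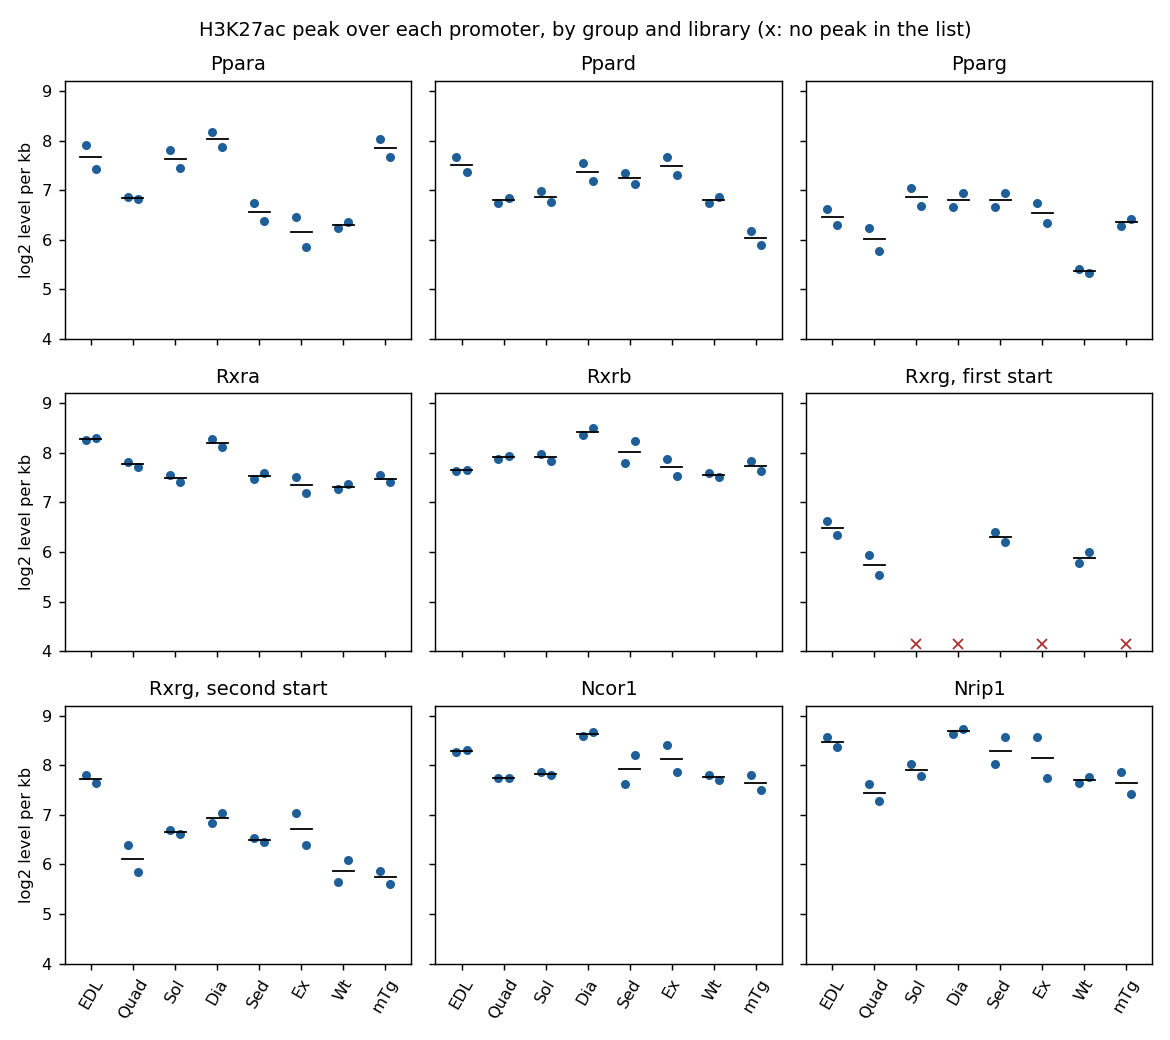
H3K27ac level per kb (log2, vertical axis) of the peak over each member's promoter in the 8 groups (horizontal axis), with 1 point per library, a bar at the mean of the 2 libraries and a cross where the list had no peak. Ncor1, Nrip1, Rxra and Rxrb sit between 7.2 and 8.7 in nearly every library, and the first start of Rxrg has no peak in Sol, Dia, Ex and mTg.

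Ppara, the receptor of fasting and fatty acid oxidation, had its widest promoter peaks in Dia and Sol and its highest promoter percentile in mTg. Its promoter peak covered 12316 bases in Dia and 9163 in Sol, against 7516 in EDL and 5773 in Quad. Per kb the 2 libraries gave 8.17 and 7.88 in Dia, 7.81 and 7.44 in Sol, 7.92 and 7.42 in EDL, and 6.85 and 6.83 in Quad. Within their own lists these peaks stood at percentile 94.3 in Dia, 96.8 in Sol, 91.6 in EDL and 84.0 in Quad. After centring, the matched promoter peak differed from Quad by 0.72 in Sol and 0.49 in EDL, under 2-fold, and that of Dia had no match. In the other Quad groups the values were 6.75 and 6.38 in Sed, 6.46 and 5.85 in Ex, 6.25 and 6.35 in Wt, and 8.03 and 7.67 in mTg, where the peak was narrower at 3301 bases and stood at percentile 99.6.

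Rxrg, the RXR isotype enriched in skeletal muscle, had 2 annotated starts with unlike patterns. The second start was acetylated in all 8 groups, from percentile 65.5 to 92.6, and was highest in EDL (chr1:167617390-167619291) with 7.80 and 7.65 per kb. The first start had an H3K27ac peak in 4 groups only. Its 2 libraries gave 6.63 and 6.34 per kb in EDL, 5.94 and 5.54 in Quad, 6.41 and 6.20 in Sed, and 5.77 and 6.01 in Wt. Sol, Dia, Ex and mTg had no H3K27ac peak there, although H3K4me2 had a peak over the first start in all 8 groups, from percentile 42.0 to 72.0. A missing peak is not a missing mark: in the list that set Ex against Sed, the Ex libraries still had levels of 6.17 and 5.99 over the region. The bases upstream of the first start, printed above, hold 0 half-sites, and those upstream of the second start hold 1.

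**Figure D2:**
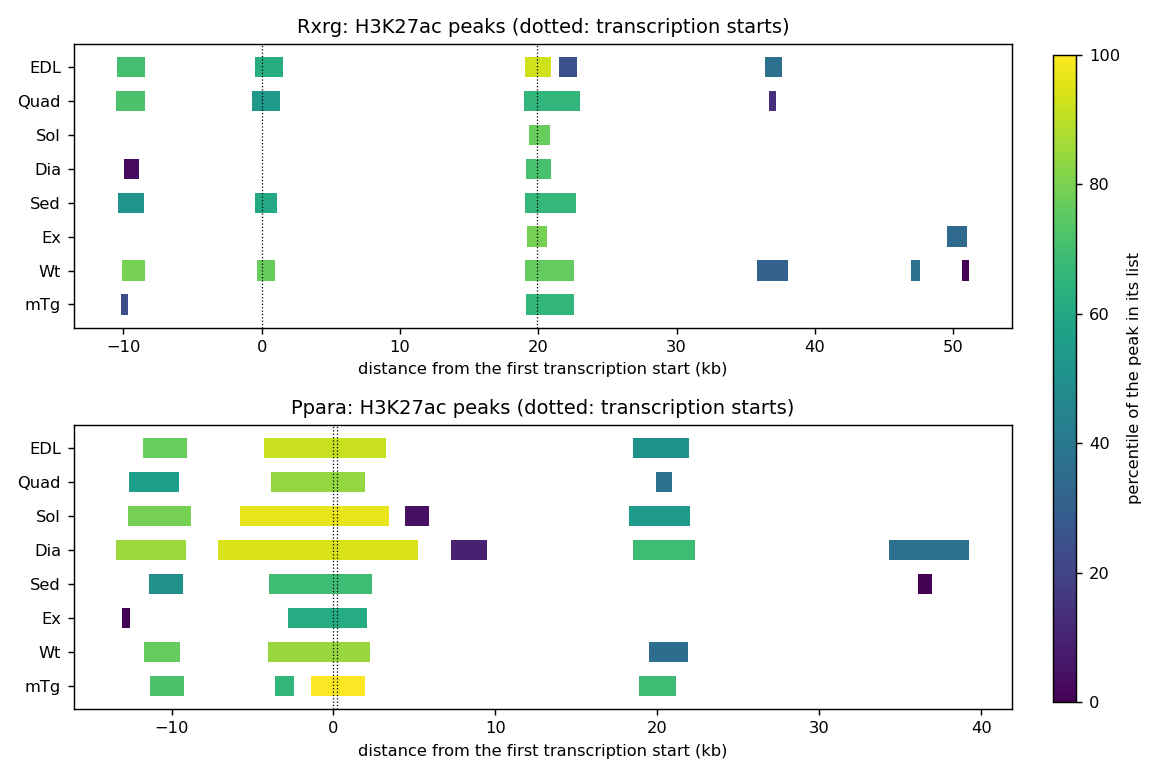
H3K27ac peaks of Rxrg (above) and Ppara (below) in the 8 groups, by distance in kb from the first transcription start (horizontal axis), coloured by the percentile of the peak in its own list, with dotted lines at the starts. Only EDL, Quad, Sed and Wt have a peak over the first Rxrg start, and the Ppara promoter peak is widest in Dia at 12316 bases.

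Summed over all peaks of a gene, H3K27ac was higher in Sol and Dia than in EDL and Quad for Ppara, and lower for Rxrg. These sums are log2 values centred on the median of the 9525 genes with a peak in all 8 lists, and the comparison was added after the values had been seen. Ppara was highest in Dia (3.34 and 2.96) and Sol (2.85 and 2.41), followed by mTg (2.18 and 2.03), EDL (2.17 and 1.61), Wt (1.05 and 1.29), Quad (1.16 and 1.02), Sed (0.90 and 0.37) and Ex (-0.08 and -0.37). The libraries of Wt and Quad overlapped, as did those of mTg and EDL, and each of Dia and Sol was above every Quad library. Rxrg was highest in EDL (0.85 and 0.54), Wt (0.47 and 0.76), Quad (0.72 and 0.23) and Sed (0.49 and 0.04), and lower in mTg (-0.32 and -0.46), Ex (-0.83 and -0.95), Dia (-1.11 and -1.08) and Sol (-1.37 and -1.44). The libraries of EDL, Wt, Quad and Sed did not overlap those of the other 4 groups, a division read from these values and not tested.

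A sum moves with the width that was called. Ppara peaks covered 27650 bases in Dia, 18341 in Sol and 9782 in Quad, and the level per covered kb was 7.44, 7.09 and 6.47. Rxrg peaks covered 8649 bases in Quad, 1519 in Sol and 2877 in Dia, with 6.04, 6.65 and 6.45 per covered kb. The lower Rxrg sums in Sol and Dia came with fewer peaks (1 and 2, against 4 in Quad) and less covered length. The levels per covered kb are not centred, and the lists share no scale. For both genes they cannot show whether the level itself differed between muscles.

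As sums that include this difference in called length, Ppara was above Quad by 1.54 in Sol and 2.06 in Dia, and Rxrg differed by -1.88 and -1.57, in each case past 2-fold without overlap. These were 2 of 7 members in each comparison, against 15.9% of all genes in Sol and 16.5% in Dia. EDL and Quad had 0 of 7 members apart (7.15% of all genes). Ppard had 2.34 in EDL, 2.24 in Quad, 2.04 in Dia and 1.81 in Sol as means of 2 libraries, and was not called in any pair. Rxra, the ubiquitous RXR, differed from Quad by -0.63 in Sol and -0.75 in Dia, and Nrip1 by -0.44 and -0.51, without reaching 2-fold. Rxrb stayed between 0.40 and 0.62 in the 4 muscles.

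Matched peak by peak, 0 to 2 member H3K27ac regions were called between a muscle and Quad, and the number depended on the measure. With the level of the whole peak in place of that per kb, Dia had 8 of 21 and Sol 4 of 21, and EDL reached 3 of 26 when 1 library was left out. For each pair of groups, a peak was paired with a single peak of the other list when they shared at least 50% of the length of both, each pair of lists was centred on its median difference, and a region was called when the means were over 2-fold apart and the libraries did not overlap. EDL and Quad had 0 of 26 member H3K27ac regions apart (0.643% of all matched regions). Sol and Quad had 1 of 21 (3.74% of all). That region lay far upstream of Nrip1, chr16:76643779-76644787 in Sol, with 4.32 and 4.07 per kb against 6.36 and 5.94 in Quad, a centred difference of -2.02. Both Sol libraries were below both Quad libraries.

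Dia and Quad had 2 of 21 H3K27ac regions apart (4.27% of all). The Rxrg upstream region, chr1:167588451-167589479 in Dia, was lower, with 5.06 and 3.98 per kb against 6.49 and 6.19 in Quad, a centred difference of -2.29. A region upstream of Ppara, chr15:85722159-85726486 in Dia, was higher, with 7.61 and 7.38 against 6.05 and 5.52, a centred difference of 1.24 that was 0.96 without Quad replicate 2. For H3K4me2, EDL and Quad had 0 of 25 apart (0.457% of all), Dia and Quad 0 of 14 (1.58%), and Sol and Quad 1 of 19 (1.89%). The last was upstream of Nrip1, chr16:76599683-76600624 in Sol, with 5.25 and 5.18 per kb against 6.44 and 6.39 in Quad, a centred difference of -1.25.

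**Figure D3:**
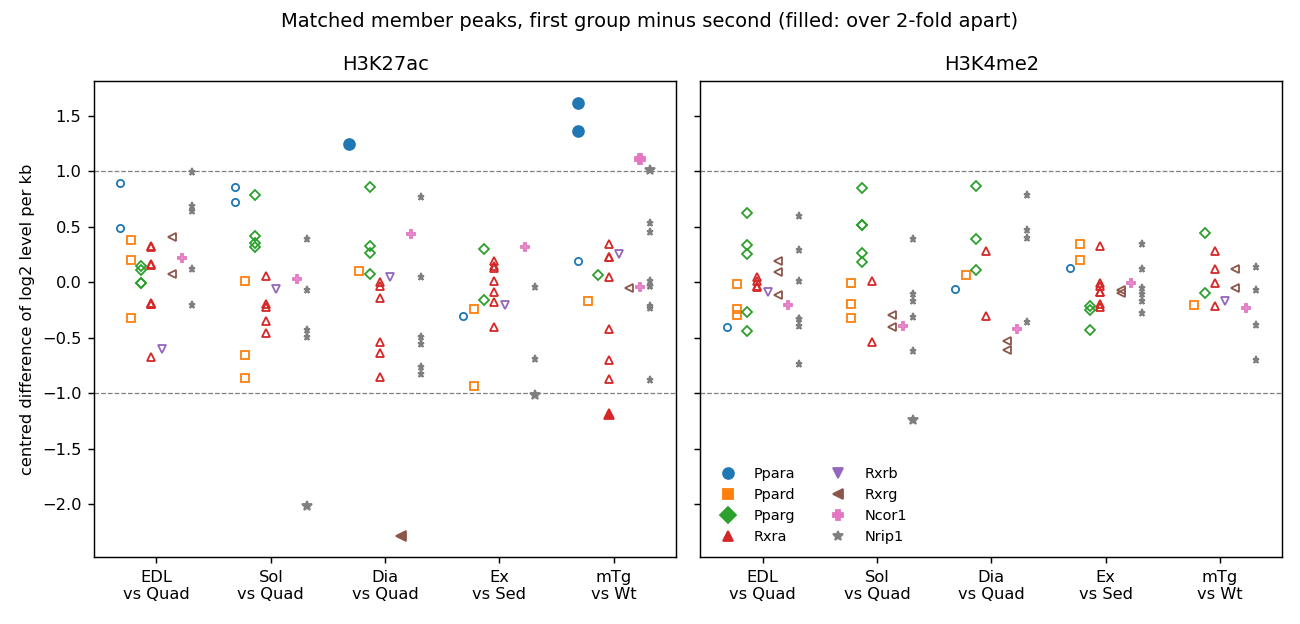
Centred difference of the mean log2 level per kb (vertical axis, first group minus second) of each matched member region, for H3K27ac (left) and H3K4me2 (right) in 5 pairs of groups (horizontal axis). Dashed lines mark 2-fold, filled symbols are the regions over 2-fold apart whose libraries do not overlap, and most filled symbols belong to H3K27ac, the largest number being 5 in mTg and Wt.

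H3K27ac was lower in Ex than in Sed at 5 member regions and higher at 0. The lists compared Ex with Sed, and their regions were selected by the authors for differing, so the tests below are not independent evidence. The limma SE was the same, 0.21, at each of the 5. Their p-values therefore follow the size of the difference and not a region's own replicate spread. Of 43 marked member regions in Ex or Sed, 5 (11.6%) were hypoacetylated in Ex, against 5.43% of all 42010 marked regions, and 0 were hyperacetylated, against 0.909%. The 5 regions comprised 3 of Nrip1, 1 of Ppard and 1 of Rxrg. In the list of hypoacetylated regions 99.7% passed an adjusted p of 0.05 in limma, so that passing does not set the members apart.

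The Ppard region covered the second intron, chr17:28239430-28243727, and contains the printed element with a DR1 match. Sed libraries had 8.004 and 7.59 and Ex libraries 7.09 and 6.92, a difference of -0.80 (SE 0.21, limma adjusted p = 0.000552). It carried an H3K27ac peak in all 8 groups. In some this was the peak that also covered the start, at percentile 88.7 in EDL, 82.97 in Quad, 81.8 in Dia and 72.6 in mTg. In Sed and Ex it was a peak apart from the start, at percentile 46.0 and 9.95. Percentiles of these unlike peaks do not compare the intron alone. No group had an H3K4me2 peak over it. In Ex the promoter peak of Ppard was also narrow, 1168 bases against 5834 in Sed, while EDL, Quad, Dia and mTg each had a single peak of 9750 to 10504 bases that reached from the start into the second intron.

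The Rxrg region lay over the first start, chr1:167597852-167599485, annotated as the 5' UTR of exon 1. It had 6.87 and 6.63 in Sed and 6.17 and 5.99 in Ex, a difference of -0.67 (SE 0.21, limma adjusted p = 0.00269). The Nrip1 regions were all intergenic and upstream. The nearest, chr16:76430580-76436317, had 9.30 and 9.17 in Sed and 8.59 and 8.18 in Ex, a difference of -0.85 (SE 0.21, limma adjusted p = 0.000301), and contains the 2 printed elements with a half-site. The next, chr16:76617794-76618737, had 4.72 and 4.62 against 4.23 and 4.09, a difference of -0.51 (limma adjusted p = 0.0186). The farthest, chr16:76643501-76645314, had 6.92 and 6.43 against 6.10 and 6.03, a difference of -0.62 (limma adjusted p = 0.00515). No Ex library overlapped a Sed library at any of the 5.

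These calls depended on single libraries. Without Ex replicate 2, 1 of the 5 passed, the Ppard region, and the others had limma adjusted p = 0.056 to 0.148. Without Ex replicate 1, 4 passed, and the middle Nrip1 region had limma adjusted p = 0.0646. Without Sed replicate 1, 4 passed, and the difference at the farthest Nrip1 region was -0.37 (limma adjusted p = 0.0924). Between the separate lists of Ex and Sed, 1 of 17 matched member H3K27ac regions was over 2-fold apart (3.17% of all) and 0 of 22 for H3K4me2 (0.0925%). That was an Nrip1 region, chr16:76406211-76408620 in Ex, with 6.44 and 5.57 per kb against 7.20 and 7.03, a centred difference of -1.01 that was -0.70 without Ex replicate 2 and -0.83 without Sed replicate 1. Summed over the gene, Rxrg differed by -1.16 and was the only one of 7 members apart (20.3% of all genes), a call lost without Sed replicate 1. Its peaks covered 2959 bases in Ex and 7203 in Sed, at 6.24 and 6.35 per covered kb.

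Marker lists moved in the same comparison. Summed H3K27ac over 9 muscle fiber markers was 4.70 and 4.29 in Sed and 3.74 and 3.55 in Ex, with peaks at 7 and 8 of the genes. Over 4 fibroblast markers it was 2.94 and 2.99 in Sed and 3.66 and 3.82 in Ex, and over 5 macrophage markers -0.36 and -0.11 in Sed and 1.00 and 1.35 in Ex. Endothelial markers had 3.32 and 3.21 in Sed and 3.59 and 3.69 in Ex, and adipocyte markers 1.39 and 1.33 in Sed and 1.71 and 2.02 in Ex. These sums also move with the called length, which was 94117 bases in Sed and 60920 in Ex for muscle fiber markers, 49183 and 73919 for fibroblast markers and 12173 and 23405 for macrophage markers. In the hypoacetylated list, Des, Myh1 and Myh4 had 1 region each and the fibroblast gene Dpt 1. The part of cell composition in the member regions was not tested.

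In mTg, H3K27ac was higher than in Wt at regions of Ppara, Pparg and Ncor1 and lower at regions of Rxrg. Of 78 marked member regions in mTg or Wt, 6 (7.69%) were hyperacetylated in mTg, against 3.27% of all 55872, and 3 (3.85%) hypoacetylated, against 1.51%. The 6 higher regions belonged to Ppara, Pparg and Ncor1 with 2 each, and the 3 lower ones all to Rxrg. In both lists 100% of regions passed an adjusted p of 0.05 in limma, and these too were selected for differing. All 9 member calls remained when any single library was left out.

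At the Ppara promoter, chr15:85731544-85737818, Wt libraries had 9.05 and 9.21 and mTg libraries 10.13 and 9.87, a difference of 0.87 (SE 0.13, limma adjusted p = 1.46e-06). An intron region of Ppara, chr15:85754453-85757451, had 6.44 and 6.49 in Wt and 7.54 and 7.48 in mTg, a difference of 1.04 (SE 0.12, limma adjusted p = 6.44e-08). The same promoter was set side by side between the separate lists, where the centred difference per kb was 1.62, but the mTg peak was the narrower one and the difference of the whole peaks was 0.75. For the intron region the corresponding values were 1.37 and 1.35.

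Pparg, best known as the adipocyte PPAR, was higher in mTg at both its promoter and an intron. The promoter, chr6:115359969-115361785, had 6.18 and 6.27 in Wt and 7.15 and 7.28 in mTg, a difference of 0.99 (SE 0.12, limma adjusted p = 1.51e-07). The intron region, chr6:115463252-115465306, had 5.75 and 6.00 in Wt and 6.90 and 7.02 in mTg, a difference of 1.08 (SE 0.13, limma adjusted p = 7.00e-08). Summed H3K27ac over 6 adipocyte markers was 1.17 and 0.95 in Wt and 0.96 and 1.33 in mTg, with peaks at 4 of the genes in both, Cidec and Retn at 0. Plin1 was the adipocyte marker with a hyperacetylated region, 0.94 higher in mTg (limma adjusted p = 5.65e-07). Fibroblast markers were lower in mTg, at 2.50 and 2.56 against 3.36 and 3.29 in Wt, as were macrophage markers, at -0.28 and -0.07 against 1.22 and 0.92. Their peaks covered fewer bases in mTg, 40880 against 70216 for fibroblast and 10977 against 22923 for macrophage markers. Endothelial markers had 2.76 and 2.93 in mTg and 2.58 and 2.41 in Wt. Muscle fiber markers had 5.14 and 5.22 in mTg and 5.29 and 5.27 in Wt, over 80160 and 114729 covered bases. The part of these lists in the member regions was not tested.

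Ncor1 had 2 neighbouring regions in its first intron that were higher in mTg. The first, chr11:62445642-62447325, had 6.49 and 6.56 in Wt and 7.40 and 7.34 in mTg, a difference of 0.84 (limma adjusted p = 1.16e-06). The second, chr11:62448165-62450111, had 5.43 and 5.57 against 6.35 and 6.25, a difference of 0.80 (limma adjusted p = 2.56e-06). The Ncor1 promoter itself was in neither list, with 7.81 and 7.71 per kb in Wt, where the peak is named for Pigl, and 7.80 and 7.49 in mTg.

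Rxrg was lower in mTg at 3 regions. The upstream region that holds a printed element, chr1:167588207-167589923, had 6.53 and 6.72 in Wt and 6.13 and 5.78 in mTg, a difference of -0.67 (limma adjusted p = 0.000194). The first start, chr1:167598029-167599303, had 6.00 and 6.17 against 5.54 and 5.56, a difference of -0.54 (limma adjusted p = 0.000555). A downstream intron region, chr1:167634147-167636386, had 5.23 and 5.13 against 4.51 and 4.45, a difference of -0.69 (limma adjusted p = 5.10e-05). The first start was thus hypoacetylated in both Ex and mTg, each against its own controls. None of these 3 regions had an H3K27ac peak in Sol, and Dia had one only at the upstream region, at percentile 2.92 of its list.

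**Figure D4:**
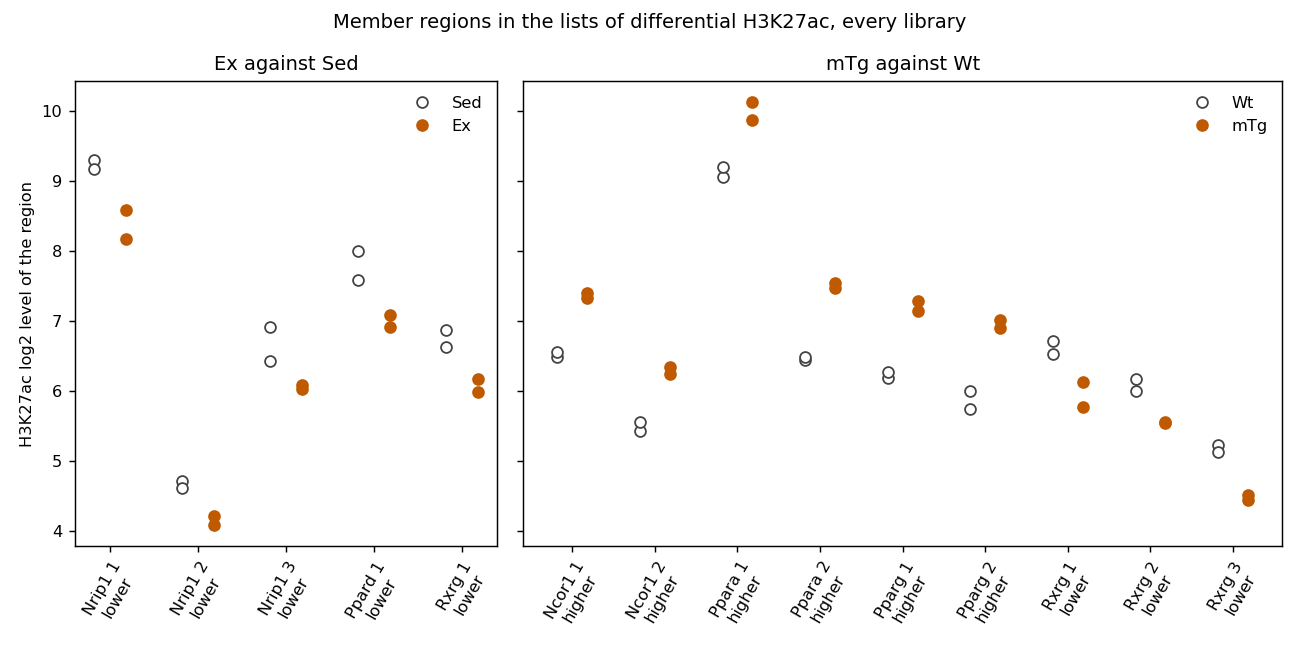
H3K27ac log2 level (vertical axis) of the 14 member regions in the lists of differential acetylation, with open points for Sed or Wt libraries and filled points for Ex or mTg libraries, numbered along the chromosome within each gene. The filled and open points do not overlap at any region; 5 regions are lower in Ex, 6 higher in mTg and 3 lower in mTg.

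Between the separate mTg and Wt lists, 5 of 26 matched member H3K27ac regions were over 2-fold apart (4.64% of all) and 0 of 15 for H3K4me2 (0.724%). Higher in mTg were the Ppara promoter and intron, the first Ncor1 intron region (centred difference 1.11, and 0.99 without Wt replicate 1) and an Nrip1 intron region, chr16:76320028-76320672 in mTg, with 5.61 and 5.16 per kb against 4.45 and 4.44. The Nrip1 difference was 1.01, and fell under 2-fold without mTg replicate 1 (0.83) or without Wt replicate 1 (0.98). The lower one was downstream of Rxra, chr2:27779707-27780485 in mTg, with 4.19 and 3.53 against 5.20 and 5.02, a difference of -1.19 that was -0.92 without mTg replicate 2. The sums over genes, which include called length, differed by 1.70 for Pparg and -1.01 for Rxrg, past 2-fold for 2 of 7 members, against 18.8% of all genes. Pparg peaks covered 8432 bases in mTg and 4884 in Wt, at 5.46 and 4.81 per covered kb. Rxrg peaks covered 3940 and 9830 bases, at 5.62 and 5.55. These levels per covered kb are not centred between the lists and do not compare the groups.

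Genes that PPARs are known to activate were also in the hyperacetylated list of mTg. This list was chosen with earlier results of these data known, so its counts are a description. Of 16 such genes, 10 had a hyperacetylated region in mTg, against 9.22% of genes with an H3K27ac peak, and 0 a hypoacetylated one (4.38% of genes). By regions this was 14 of 76 marked ones, 18.4% against 3.27% of all. The largest difference was at Plin5, a lipid droplet protein of oxidative tissue, with 1.60 (limma adjusted p = 2.15e-10). Fabp3, the muscle fatty acid binding protein, had 3 regions up to 1.25, and Cd36, a fatty acid transporter, 3 up to 1.15. Cpt2 and Slc25a20, which take part in the entry of acyl groups into mitochondria, had 1.15 and 0.97. Decr1, Acadvl, Angptl4, Cpt1b and Ucp3 had 1 region each, from 0.54 to 0.80.

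In Ex the same list gave 2 of 16 genes with a hypoacetylated region (10.6% of all genes) and 0 with a hyperacetylated one (2.34%). Pdk4, the kinase that shuts down pyruvate oxidation, had 3 regions with differences of -0.92, -0.90 and -0.80 (limma adjusted p = 0.000146, 0.000182 and 0.000507). Ucp3, a mitochondrial carrier, had 1 region with -0.77 (limma adjusted p = 0.000725). Ucp3 was thus in the lower list in Ex and in the higher list in mTg (0.54), at regions that overlap only at their edges.

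Other partners of the members appeared on both sides. Among 8 further receptors that pair with RXR, Thrb, a thyroid hormone receptor, had 5 hyperacetylated regions in mTg (0.73 to 0.88) and 2 hypoacetylated in Ex (-0.88 and -0.51), and Rarb, a retinoic acid receptor, 1 in Ex (-0.64). These were 11.1% of the list's marked regions in mTg, against 3.27% of all, and 10.7% in Ex, against 5.43%. Among 5 other subunits of the NCoR complex, Tbl1xr1 had 6 hyperacetylated regions in mTg (0.49 to 1.21) and Tbl1x 1 (0.58), while Tbl1xr1 had 4 hypoacetylated regions in Ex (-0.82 to -0.57), or 9.09% and 8% of the list's marked regions. Among 9 coactivators, Ppargc1a had 1 hyperacetylated region in mTg (0.59) and 2 hypoacetylated in Ex (-0.70 and -0.98). Ppargc1b had 1 region in each of 3 lists, with 0.86 and -0.49 in mTg and -0.70 in Ex, and Ncoa3 the only hyperacetylated one in Ex (0.46). The coactivator shares were close to those of all regions, at 2.53% hyperacetylated in mTg and 5.45% hypoacetylated in Ex. Members and these lists share no region, since each region is named for 1 gene.

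Peaks of MED1, a subunit of the mediator complex, were about as frequent at these genes as at others. In the 4 muscles, 7 of 175 member H3K27ac peaks held a MED1 peak of the same muscle (4%, against 3.57% of all). Rxrb had MED1 at its promoter in EDL, Quad and Sol, Ppara in Dia, Ncor1 in Sol and Ppard and Nrip1 in Quad. NFAT, a calcium-responsive factor, had 12 member peaks of 39661 in Sol and 1 of 485 in Quad. Of the 12 in Sol, 1 lay in an H3K27ac peak, in the Pparg intron region that was hyperacetylated in mTg. Its score of 14.3 stood low in the Sol list, at percentile 9.79. No share over all Sol NFAT peaks is at hand, so this count is only a description. MED1 and NFAT came from 1 library per muscle, so these counts have no replicate.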

How the data were processed

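Histone ChIP-seq, ATAC-seq and factor ChIP-seq of mouse muscle were analysed from the deposited region lists. Per the labels and methods, the authors aligned ChIP reads to mm10 with Bowtie (1.2 in the submitters' processing notes, an earlier release in the methods) and ATAC reads with Bowtie2, and called histone peaks over both replicates against input with HOMER and DESeq2, at 2-fold and an adjusted p of 0.05. Per the methods, the same HOMER command was run between groups for the differential lists, with an option that lets the data be quantile normalised. The deposited level columns are log2 values per region and library, taken to be a regularized logarithm. This shrinks differences most at regions with few tags, and it was computed by the authors within each list, so lists share no scale. The deposited adjusted p-values were used only to filter regions. Enrichment over input was computed here from the deposited log2 levels, as the mean of a group's libraries minus that of its input, and given as a fold. The deposited fold over input columns, which are the authors' log2 values, did not enter it. MED1 and NFAT lists carry the deposited peak score, and the ATAC list the deposited signal, a normalised tag number pooled over the control libraries. ATAC lists of exercised and transgenic muscle and footprints, on another build, were not used, nor were the authors' differential fold changes.

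Samples were grouped by title. Levels were divided by peak width on the linear scale and given as log2 per kb. Within each differential list, libraries were compared with limma 3.58.1 (R 4.3.3; two-sided, Benjamini-Hochberg over the list). Between lists no test was run: a region was called only past 2-fold with libraries not overlapping after centring. Promoters and sequences came from RefSeq on GRCm38.p6, and words were searched on both strands. ATAC peaks carry no gene names and were assigned by lying in a member region of either mark. The scripts were tested on simulated data. Alternatives were the overlap, the centring, the whole peak, stricter thresholds, a replicate block and each library left out. Regions given in full were those in a differential list, those called between groups, and each member's promoter and strongest H3K27ac peak. The members and gene lists were chosen with earlier results of these data known, and summed levels were added after values had been seen. No label gave a batch. Python 3.11.15, pandas 2.3.3 and numpy 2.4.6 were used.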

Additional observations from a re-analysis of the deposited data

How the results depend on the processing

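At a deposited adjusted p under 0.001, which is not that of limma, 197 of the 372 member H3K27ac peaks and 178 of the 323 H3K4me2 peaks remained. So did 1 of the 5 member regions hypoacetylated in Ex. With at most 1 mismatch, 0 DR1 words were found. Centring the libraries of a differential list to equal medians left 0 of the 5 and 0 of the 9 member regions past the threshold. A list of regions that all changed one way loses its common shift by that step. Differences turned sign there at the Nrip1 regions starting at 76617794 (0.27) and 76643501 (0.17), the Rxrg first start in Ex (0.12) and in mTg (0.13), and the second Ncor1 region (-0.0012). Leaving out 1 library gave 1 to 5 of 5 calls in Ex and 9 of 9 in mTg.

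For matched H3K27ac regions, an overlap of 80% gave 0 calls in Sol, 0 in Dia, 0 in Ex and 1 in mTg, and no centring gave 3 in EDL, 4 in Dia and 2 in Ex. Whole peaks gave 4 in Sol, 8 in Dia and 2 in Ex. Leaving out 1 library gave 0 to 3 in EDL, 1 to 3 in Sol, 2 to 4 in Dia, 0 to 3 in Ex and 3 to 7 in mTg. For H3K4me2, an overlap of 80% gave 0 in Sol, no centring gave 2 in EDL, and whole peaks gave 1 in EDL, 3 in Sol, 2 in Dia and 1 in mTg. Leaving out 1 library gave 1 to 2 in Sol and 0 to 2 in Dia. For summed levels, no centring gave 1 member in EDL and 3 in Ex, and leaving out 1 library gave 0 to 1 and 0 to 3. The cause of these shifts was not tested.

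With the replicate number as a block, 5 of 5 and 9 of 9 member regions still passed. The labels do not pair the numbers, and the deviations of same-numbered libraries correlated at 0.144, 0.106, -0.0386 and -0.242 in the 4 lists. With 2 libraries a group, these data limit every statement on single regions.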

Other observations

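By summed H3K27ac over the 16 libraries, the genes most like each member were Mdh1 (Pearson r = 0.973), a malate dehydrogenase, and Bag3 (0.968) for Ppara, Cuedc1 (0.962) and Rab12 (0.960) for Ppard, and Dad1 (0.933) and Adora2a (0.914) for Pparg. For Rxra they were Mfap2 (0.979) and Sort1 (0.963), for Rxrb H3f3a (0.928) and Vps13a (0.923), for Rxrg Uts2r (0.988) and Mir7687 (0.983), and for Nrip1 Ell2 (0.945) and R3hdm2 (0.943). Ncor1 has no Sed peak under its own name and was left out. These are the top 2 of 9525 genes, with 2 libraries from each of 8 groups. Over all genes the median r lay between -0.0562 and 0.0237.

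Of 15 RefSeq promoters of the members, 4 held an exact AGGTCA half-site in the 250 bases upstream (26.7%, against 14.0% of 32851), 2 of them at Pparg, 1 at the second start of Rxra and 1 at the second start of Rxrg.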
